A study of Mus musculus with 18 samples.

Results

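TRAPP (transport protein particle) is a set of multi-subunit tethering complexes, and the 10 subunit genes described here were taken by symbol from the deposited table of 36757 genes: Trappc1, Trappc2l, Trappc3, Trappc4, Trappc5, Trappc6a, Trappc6b, Trappc9, Trappc10 and Trappc11. The rule used the symbols only and no measured value, and all 10 were found and passed the filter on low counts in every comparison. The table holds 16 genes of TRAPP subunits and close relatives in all, and the remainder (Trappc2, Trappc8, Trappc12, Trappc13, the gene listed as BC037034, which encodes TRAPPC14, and Trappc3l) were kept as a second list.

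TRAPP complexes act as guanine nucleotide exchange factors, switching on small Rab GTPases so that transport vesicles can be tethered to the next membrane. A shared core, built from the products of Trappc1, Trappc2, Trappc2l, Trappc3, Trappc4, Trappc5 and Trappc6a or its paralogue Trappc6b, holds the exchange site for Rab1. TRAPPII adds TRAPPC9 and TRAPPC10 to the core and works at the Golgi, whereas TRAPPIII adds TRAPPC8, TRAPPC11, TRAPPC12 and TRAPPC13 and is known from early secretion and autophagy. TRAPPC9 is also called NIBP, for NIK and IKK-beta binding protein, because it binds those kinases of the NF-kB pathway. The study asked how loss of RNF138, a ubiquitin E3 ligase that it places upstream of NIBP, changes the colon on the way from colitis to cancer. In human colorectal cancer cell lines it found no change in NIBP protein level after RNF138 was disrupted. It proposes that RNF138 governs where in the cell NIBP lies, without need of the ligase activity. Transcript levels of Trappc9 do not test that mechanism.

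The 18 libraries came from C57BL/6 mice, 3 for each of 2 genotypes in each of 3 models, and carried 11514716 to 24390082 counted reads. Controls were labelled wild type and described as RNF138 fl/fl, that is, carrying the floxed allele, and the other libraries were labelled RNF138-/-. Neither the Cre line nor the deleted exons is given in the sources used here, and no label says whether animals were pooled or whether replicates were separate animals, so p-values measure only the spread between these samples. The colitis model was colon of mice started at 6 to 8 weeks of age on repeated cycles of 2% dextran sodium sulfate (DSS) in the drinking water for 7 days and plain water for 14 days, collected 4 weeks after the last cycle. The colitis-associated colorectal cancer (CAC) model received in addition 10 mg/kg of the carcinogen azoxymethane by injection 4 days before the first DSS cycle. Organoids were grown in matrigel from digested tumor-bearing bowel of CAC mice.

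Several properties of the libraries touch the comparisons below. Rnf138 itself did not pass as lower in any group labelled RNF138-/-, with log2 differences of -0.06 in colitis, 0.72 in CAC (edgeR adjusted p = 0.0426, higher) and -0.10 in organoids. Gene-level counts cannot show the loss of single exons, so the genotype rests on the labels. All 3 RNF138 fl/fl organoid libraries had 390.4 to 463.9 CPM of Xist and no count of 4 Y-linked genes, and all 3 RNF138-/- organoid libraries had 241.7 to 281.2 summed Y-linked CPM, so in organoids sex and genotype cannot be told apart. The 12 tissue libraries all carried Y-linked reads. The organoid libraries expressed epithelial Epcam (826.4 to 1622.6 CPM), but their 6 stromal markers summed to 9090.2 to 23221.5 CPM in RNF138 fl/fl and 40406.0 to 49652.1 CPM in RNF138-/- libraries, against 922.5 to 1730.8 CPM across CAC tissue, so they were not epithelial alone. In CAC tissue, 6 smooth muscle markers summed to 2505.1 to 8379.2 CPM in RNF138 fl/fl and only 113.2 to 241.9 CPM in RNF138-/- libraries. The part of these cell type differences in the results was not tested, and in bulk samples fewer cells of a type and less RNA per cell cannot be told apart.

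In mm10, with positions from GENCODE M21, the core genes were Trappc1 at chr11:69323980-69325793 on the plus strand, Trappc2l at chr8:122611640-122616660 on the plus strand, Trappc3 at chr4:126262325-126275883 on the plus strand, Trappc4 at chr9:44403698-44407600 on the minus strand, Trappc5 at chr8:3676299-3681255 on the plus strand, Trappc6a at chr7:19508395-19516145 on the plus strand and Trappc6b at chr12:59043092-59061472 on the minus strand. Trappc10 lay at chr10:78186725-78244641 and Trappc11 at chr8:47490115-47533470, both on the minus strand. Trappc9 was by far the longest gene, spanning 471585 bases at chr15:72589620-73061204 on the minus strand with 27 merged exon blocks. Counts are per gene over its exons. Trappc4 shared 462 exon bases, 18.9% of its exon length, with the ribosomal protein gene Rps25 on the opposite strand, and Trappc5 shared 492 with the antisense gene Gm45231, which had at most 2 counts in a library. The library kit named below does not mark strand, so strand cannot assign reads from these shared bases. Whether strand was used in counting is not given in the sources used here, and Trappc4 is uncertain.

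Levels are given as depth-scaled read counts (CPM, scaled by trimmed mean of M values, TMM), and levels of different genes are compared only after division by exon length (FPKM). All 10 transcripts were present in all libraries, with 248 to 2359 counts behind each value. The 5 highest means were those of core subunits, and the core subunit Trappc5 was among the lowest. Over the 18 libraries the mean level per length was 36.4 ± 7.53 FPKM for Trappc3, a lipid-modified core subunit, 34.1 ± 12.8 for Trappc6a and 29.7 ± 5.95 for Trappc1 (SD, n = 18). The TRAPPII subunits stood at 11.5 ± 1.68 FPKM for Trappc10 and 5.54 ± 1.65 FPKM for Trappc9, the TRAPPIII subunit Trappc11 at 9.0 ± 0.983 FPKM and the core subunit Trappc5 at 5.64 ± 0.785 FPKM. Trappc9 was the lowest of the 10 in all 4 tissue groups, and in both organoid groups it moved above Trappc5, a core subunit, with no overlap between their ranges. At the top of the order stood Trappc6a in colitis, Trappc1 in CAC tissue and Trappc3 in organoids, and the first gene overlapped the next in every group but RNF138-/- CAC tissue, where Trappc1 (31.9 ± 0.786 FPKM) was apart from Trappc3 (27.8 ± 2.06 FPKM). The FPKM order depends on the length used: with the longest protein-coding transcript, chosen after the data were seen, Trappc6a came first at 69.1 ± 25.8 FPKM and Trappc5 fell below Trappc9 to the last place.

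The steadiness of the members differed. Over the 18 libraries Trappc11 varied by 1.54-fold from its lowest to its highest CPM, Trappc10 by 1.63-fold and Trappc6b by 1.64-fold, whereas Trappc9 varied by 2.96-fold and Trappc6a by 3.54-fold. The median coefficient of variation of the 10 members was 19.8%, beside 35.0% for the 7280 genes whose mean CPM was at least that of the lowest member. As a share of the summed FPKM of the 10 members, Trappc9 stood at 2.49% ± 0.107 and 2.09% ± 0.254 in RNF138 fl/fl and RNF138-/- colitis, at 2.42% ± 0.229 and 3.26% ± 0.209 in CAC tissue and at 3.48% ± 0.373 and 4.63% ± 0.363 in organoids (SD, n = 3). RNF138-/- CAC tissue overlapped RNF138 fl/fl organoids. Trappc1 stood at 19.3% ± 0.432 in RNF138 fl/fl CAC tissue and at 12.5% ± 1.44 in RNF138 fl/fl organoids.

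**Figure D1:**
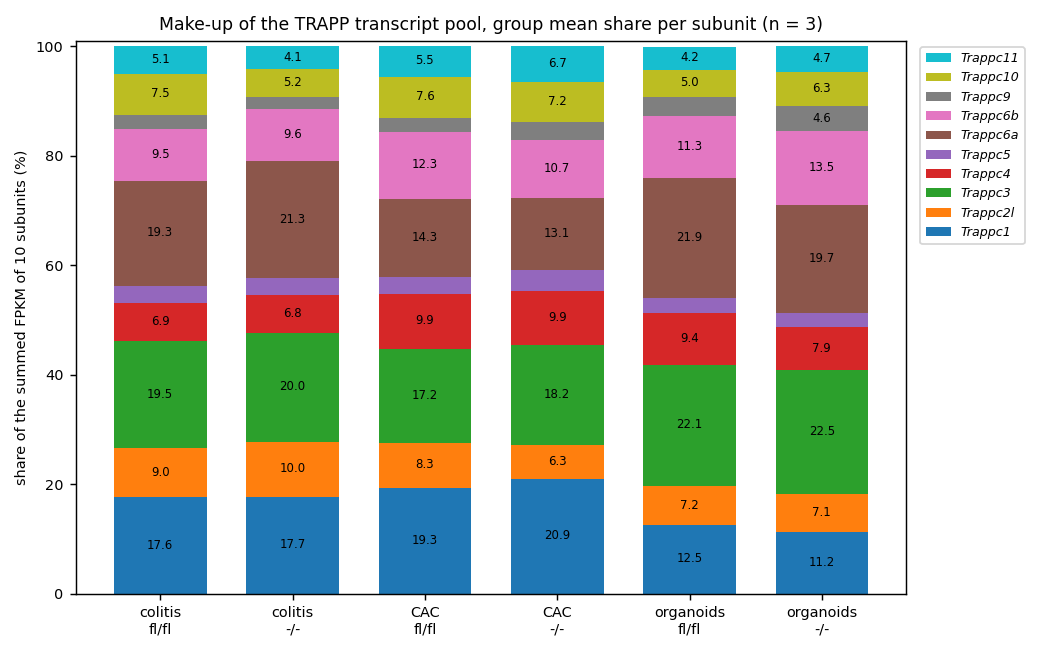
Stacked bars give the mean share (%) of each of the 10 subunits in their summed FPKM for the 6 groups (n = 3 each), with shares of at least 4% printed. Trappc1, Trappc3 and Trappc6a are the broadest bands in tissue, and the Trappc9 band is widest in organoids, at 3.48% and 4.63%.

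Trappc9, whose product NIBP is the protein the study works on, was read in every library. In colitis it had 41.1, 38.8 and 33.0 CPM in the RNF138 fl/fl libraries and 40.7, 35.2 and 23.1 CPM in the RNF138-/- libraries. The genotypes overlapped, and replicate 3 was the lowest of each. In CAC tissue the RNF138 fl/fl libraries had 33.1, 33.0 and 30.8 CPM and the RNF138-/- libraries 38.6, 41.1 and 38.9 CPM. Here all RNF138-/- libraries lay above all RNF138 fl/fl libraries, but the log2 difference of 0.24 (95% interval -0.03 to 0.51) did not pass edgeR's quasi-likelihood test (adjusted p = 0.187). In organoids the RNF138 fl/fl libraries had 61.3, 56.1 and 54.5 CPM and the RNF138-/- libraries 62.3, 60.9 and 68.4 CPM. Those ranges overlapped, and the log2 difference was 0.12 (95% interval -0.12 to 0.36, edgeR adjusted p = 0.386), turning to -0.08 when libraries were scaled by their totals alone. The colitis difference of -0.19 (95% interval -0.73 to 0.35, edgeR adjusted p = 0.841) was 0.00 without RNF138-/- replicate 3, when its low same-numbered control was kept. Within each same-numbered colitis pair the RNF138-/- library was the lower, and the replicate block gave -0.22 (edgeR adjusted p = 0.554).

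Its TRAPPII partner Trappc10 in colitis had 119.9, 106.9 and 117.0 CPM in RNF138 fl/fl and 73.4, 87.2 and 81.6 CPM in RNF138-/- libraries. The RNF138-/- libraries were all lower, by 1.42-fold, with a log2 difference of -0.51 ± 0.16 (SE) and an interval of -0.88 to -0.14. It had the smallest unadjusted p of the members in colitis, 0.0137 in edgeR's fit across all genes, but the adjusted p was 0.325, and between 0.122 and 0.899 over the alternatives. In CAC tissue the mean was 104.1 ± 6.80 CPM in RNF138 fl/fl and 90.1 ± 6.44 CPM in RNF138-/- libraries (SD, n = 3), again without overlap, and in organoids 83.3 ± 8.17 and 88.8 ± 6.42 CPM with overlap. Neither difference passed the edgeR test (adjusted p = 0.190 and 0.716).

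The ratio of Trappc9 to Trappc10 within a library does not depend on the scaling of libraries, and is given as a description. In FPKM it was 0.351, 0.372 and 0.289 in RNF138 fl/fl colitis and 0.568, 0.414 and 0.290 in RNF138-/- colitis. It was 0.349, 0.305 and 0.302 in RNF138 fl/fl CAC tissue and 0.413, 0.507 and 0.435 in RNF138-/- CAC tissue, where the genotypes did not overlap. Of all single genes, 45.2% did not overlap there either, and no such share was computed for ratios of genes. All 6 organoid libraries lay higher, between 0.667 and 0.766.

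**Figure D2:**
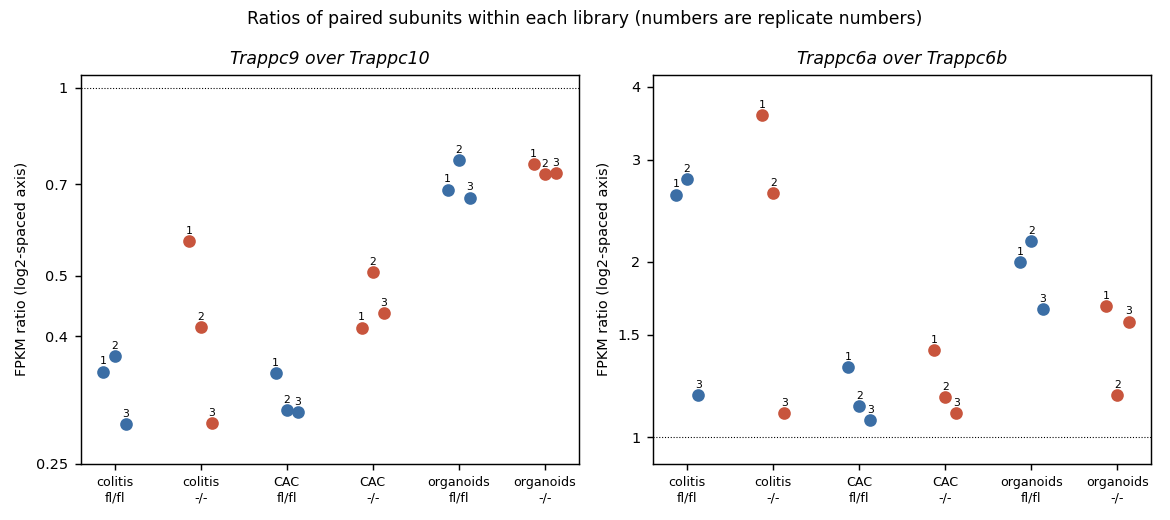
FPKM ratios within each library on log2-spaced axes for Trappc9 over Trappc10 and for Trappc6a over Trappc6b. Points are libraries, blue for RNF138 fl/fl and red for RNF138-/-, numbered by replicate. All 6 organoid libraries lie above all 12 tissue libraries for Trappc9 over Trappc10, and colitis replicate 3 is the lowest of its group in both panels.

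Of the core, Trappc6a and Trappc6b are alternative paralogous subunits, and Trappc5 and Trappc6a both fell in RNF138-/- organoids (values below), so the promoter sequences of these 3 genes are shown. The capitals mark matches on either strand to 3 motifs. The GC box was searched as GGGCGG and was found in 35.7% of all 32851 promoter windows of this length. The ETS core was searched as CCGGAAG and was found in 8.86% of those windows. The TATA box was searched as TATAAA and was found in 13.6% of them. RefSeq sequences (GRCm38.p6) cover 250 bases before and 50 after the start, and 7 of the 10 members had an entry. Trappc5 is from chr8:3676227-3676526 on the plus strand, Trappc6a from chr7:19508420-19508719 on the plus strand and Trappc6b from chr12:59061423-59061722 on the minus strand.
Trappc5: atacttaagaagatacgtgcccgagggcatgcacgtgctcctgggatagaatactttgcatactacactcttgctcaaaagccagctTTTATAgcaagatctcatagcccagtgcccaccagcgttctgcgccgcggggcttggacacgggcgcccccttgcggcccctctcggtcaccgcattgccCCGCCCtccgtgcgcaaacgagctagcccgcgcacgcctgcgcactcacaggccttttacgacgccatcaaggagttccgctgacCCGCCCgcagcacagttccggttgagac
Trappc6a: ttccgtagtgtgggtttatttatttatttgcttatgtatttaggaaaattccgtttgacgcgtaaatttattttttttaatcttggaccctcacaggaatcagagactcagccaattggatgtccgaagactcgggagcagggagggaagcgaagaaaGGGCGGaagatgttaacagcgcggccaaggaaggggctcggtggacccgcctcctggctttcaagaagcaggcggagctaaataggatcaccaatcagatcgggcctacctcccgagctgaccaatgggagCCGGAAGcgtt
Trappc6b: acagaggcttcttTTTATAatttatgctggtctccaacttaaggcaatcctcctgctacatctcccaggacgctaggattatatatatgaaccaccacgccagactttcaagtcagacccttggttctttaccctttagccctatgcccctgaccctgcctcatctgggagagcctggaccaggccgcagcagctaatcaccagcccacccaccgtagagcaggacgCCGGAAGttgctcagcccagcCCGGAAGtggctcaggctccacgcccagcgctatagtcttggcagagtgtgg
The Trappc5 window held 2 GC boxes and 1 TATA box, that of Trappc6a 1 GC box and 1 ETS core, and that of Trappc6b 2 ETS cores and 1 TATA box. The windows had 26, 17 and 9 CpG dinucleotides in the same gene order, beside a median of 7 over all windows. The NF-kB consensus, searched by its degenerate pattern on both strands, had no match in any of the 7 member windows and was found in 8.46% of all windows.

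Trappc6a had the widest range of the members. In colitis it had 66.5, 70.8 and 40.1 CPM in RNF138 fl/fl and 103.0, 67.6 and 36.0 CPM in RNF138-/- libraries. Replicate 3 of each genotype was far below the other libraries, and the genotypes overlapped. Trappc6b in the same libraries ranged only from 38.7 to 51.9 CPM, with replicate 3 the highest of each genotype. The FPKM ratio of Trappc6a to Trappc6b was therefore 2.61 to 3.58 in replicates 1 and 2 of colitis, but 1.18 and 1.10 in replicate 3. In CAC tissue it lay between 1.07 and 1.41 in all 6 libraries. The 6 smooth muscle markers also spread widely in RNF138-/- colitis, from 4989.7 to 14526.5 CPM in sum, and their part in the Trappc6a level was not tested.

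**Figure D3:**
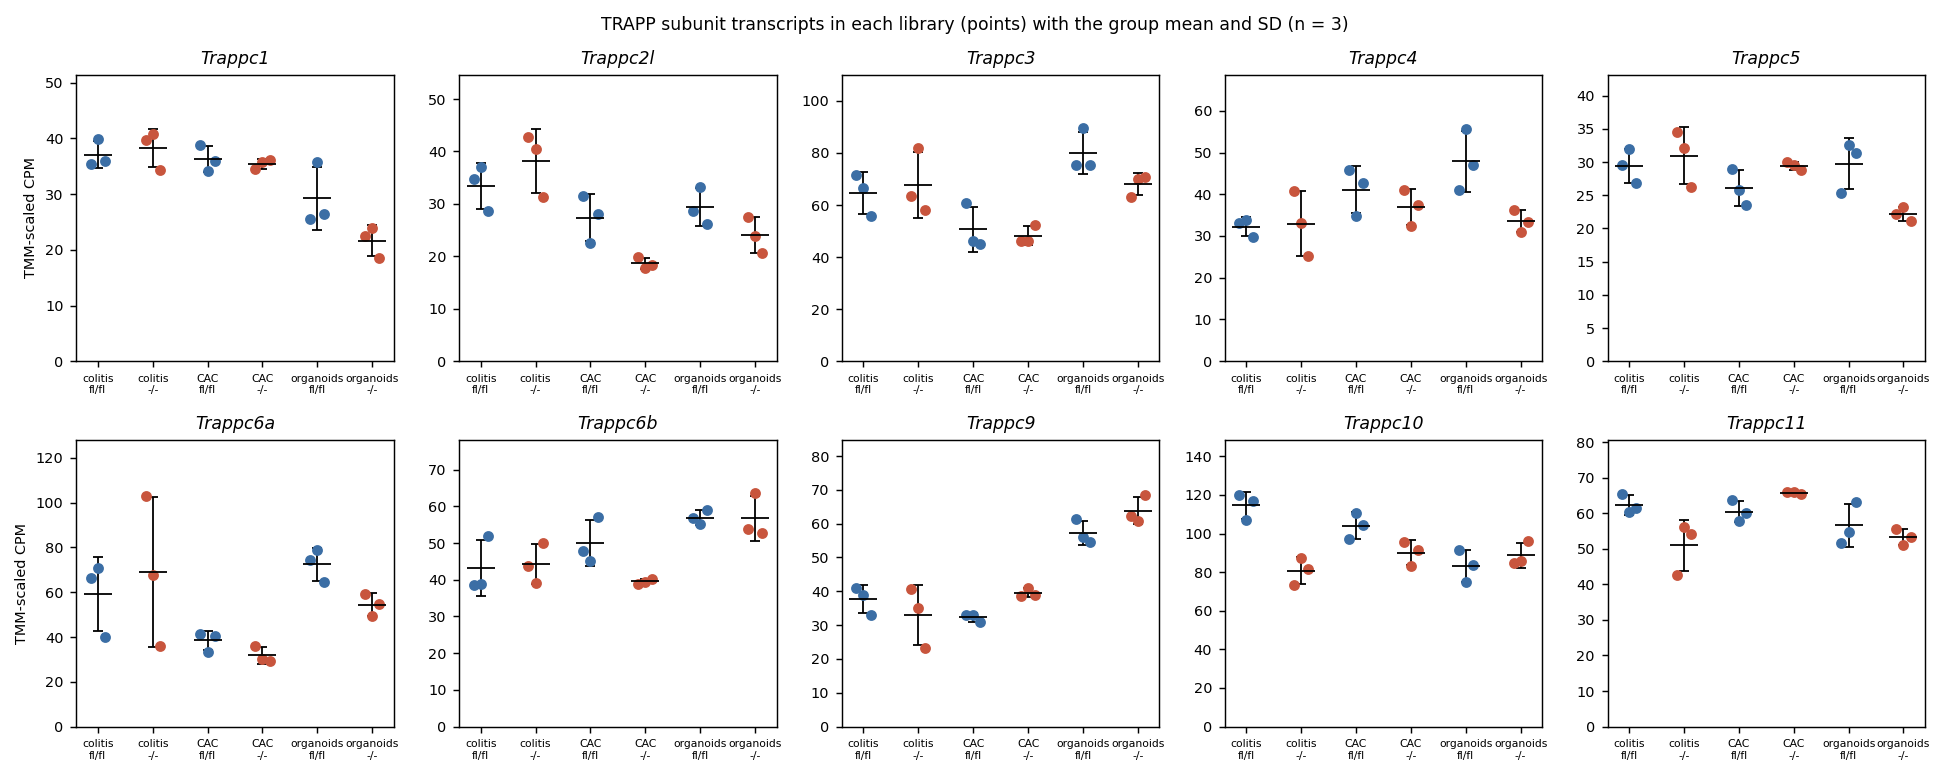
TMM-scaled CPM of each subunit in every library (points, blue for RNF138 fl/fl and red for RNF138-/-), with the group mean (bar) and SD (n = 3), from a baseline of 0. Trappc9 stands at 54.5 to 68.4 CPM in organoids and 23.1 to 41.1 CPM in tissue, and Trappc6a spreads from 36.0 to 103.0 CPM in RNF138-/- colitis.

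In colitis, none of the 10 members passed the genotype test at an adjusted p of 0.05, where 0.0902% of 16623 genes did, and 1 member, Trappc10, passed at an unadjusted p of 0.05 in edgeR, beside 10.4% of all genes. None passed with a fold change of at least 2 either, and DESeq2 called none of the members. The median log2 difference of the members was 0.04, beside 0.02 over all genes tested. The 2 members without overlap between genotypes were Trappc10 and Trappc11, both lower in RNF138-/- libraries, and 17.2% of all genes had no overlap. Trappc11, the TRAPPIII subunit, had 65.4, 60.3 and 61.4 CPM in RNF138 fl/fl and 42.8, 56.1 and 54.2 CPM in RNF138-/- libraries. Its log2 difference of -0.29 (95% interval -0.69 to 0.11) had an edgeR adjusted p of 0.637. The intervals of the 6 core members other than Trappc6a lay within -0.46 and 0.64, and that of Trappc6a ran from -0.65 to 1.08.

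In CAC tissue, 0 of the 10 members passed at an adjusted p of 0.05 in edgeR, where 6.38% of 17752 genes did and 5.37% did with a fold change of at least 2, and Trappc2l and Trappc6b passed at an unadjusted p of 0.05, beside 33.8% of all genes. Trappc2l, a core subunit related to sedlin, had 31.6, 22.6 and 28.0 CPM in RNF138 fl/fl and 19.9, 17.8 and 18.4 CPM in RNF138-/- libraries. All RNF138-/- libraries were lower, by 1.52-fold, with a log2 difference of -0.61 ± 0.17 (SE) and an edgeR adjusted p of 0.0701. The call depended on the fit: DESeq2 gave an adjusted p of 0.0204 and the edgeR fit of all 18 libraries 0.0311, whereas scaling by totals alone gave a log2 difference of -0.33 (adjusted p = 0.228) and the Y-linked covariate left the log2 difference at -0.60 with an adjusted p of 0.356. Trappc6b had 47.9, 45.2 and 57.2 CPM against 38.9, 39.5 and 40.3 CPM, lower in RNF138-/- libraries without overlap, with a log2 difference of -0.40 and an edgeR adjusted p of 0.108. Trappc11 had 63.7, 57.8 and 60.1 CPM against 66.0, 66.0 and 65.6 CPM, the RNF138-/- libraries being higher, and its log2 difference was 0.07 (edgeR adjusted p = 0.669). In all, 5 members did not overlap between genotypes, 3 lower and 2 higher, beside 45.2% of all genes. The median log2 difference of the members was -0.16 and that of all genes 0.01. Beside these values stand the smooth muscle, neuronal, fat (15.4 to 16.2 against 54.8 to 98.4 CPM) and epithelial (6606.8 to 8038.8 against 8085.2 to 15952.3 CPM) marker sums, each lower in RNF138-/- CAC tissue without overlap. The sum of 7 leukocyte markers was lower too (630.2 to 926.9 CPM against 1775.1 to 2750.9 CPM), mostly through the plasma cell gene Jchain (119.3 to 203.5 against 1393.6 to 2178.5 CPM), and 5 of the 7 had a lower and 2 a higher fitted level. Ptprc, the general leukocyte marker, was at 25.8 to 41.6 CPM against 46.5 to 68.3 CPM, the macrophage marker C1qa at 59.6 to 63.8 CPM against 33.3 to 103.2 CPM, and the myeloid marker Itgam at 29.4 to 44.8 CPM against 16.7 to 22.9 CPM. The part of these cells was not tested.

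In organoids, 3 core members fell in RNF138-/- libraries and none rose, beside 17.7% of 15294 genes that fell and 17.9% that rose. The share of members called, 3 of 10, was thus near that of all genes, 35.5%. None of the 3 had a fold change of at least 2, where 15% of all genes passed both criteria. Trappc4, a core subunit of the exchange site, had 41.0, 55.7 and 46.9 CPM in RNF138 fl/fl and 36.3, 31.0 and 33.3 CPM in RNF138-/- libraries. All RNF138-/- libraries were lower, by 1.47-fold (log2 difference -0.55 ± 0.15 SE, edgeR adjusted p = 0.0219). Rps25, which overlaps it on the other strand, differed by -0.12 (edgeR adjusted p = 0.508).

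The core subunit Trappc5 had 25.4, 32.5 and 31.4 CPM in RNF138 fl/fl and 22.2, 23.3 and 21.1 CPM in RNF138-/- organoids. The genotypes did not overlap, and the log2 difference was -0.46 ± 0.14 (SE, edgeR adjusted p = 0.0342). Trappc6a had 74.5, 78.7 and 64.4 CPM against 59.3, 49.4 and 54.8 CPM, again lower in all RNF138-/- libraries, with a log2 difference of -0.45 ± 0.12 (SE, edgeR adjusted p = 0.0236). Its paralogue Trappc6b had 56.7, 55.1 and 59.0 CPM against 53.8, 63.7 and 52.7 CPM, with overlap and a log2 difference of -0.04 (95% interval -0.30 to 0.21). Trappc1, with 25.5, 35.8 and 26.4 CPM against 22.4, 24.0 and 18.5 CPM, and Trappc3, with 75.4, 89.4 and 75.4 CPM against 63.1, 70.0 and 70.8 CPM, were also lower in every RNF138-/- library but missed the threshold (edgeR adjusted p = 0.0692 and 0.0938). In all, 5 of 10 members did not overlap, beside 53.3% of all genes.

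These 3 calls depended on the fit. RLE scaling and DESeq2 called 3 members, and scaling by totals alone called 6, all lower, with the median of all genes at -0.24 in place of -0.04. Of all genes, 6405 were called when scaled by totals alone, 29.9% of them higher, in place of 5436 and 50.3%. Without RNF138 fl/fl replicate 2, the highest library for each of the 3, however, no member passed, and the same was so without RNF138-/- replicate 2 or replicate 3. The Trappc5 call was lost in 5 of the 6 fits that left out a library, also without RNF138 fl/fl replicate 3 (adjusted p = 0.0739) and RNF138-/- replicate 1 (0.106), and without a filter on low counts (0.0555). The edgeR fit of all 18 libraries also called 0 members, with adjusted p of 0.0580 for Trappc4, 0.0598 for Trappc5 and 0.334 for Trappc6a, and a Y-linked covariate, almost the same as genotype here, left 0. A replicate block left 0 as well. The log2 differences without a library ran from -0.64 to -0.42 for Trappc4, from -0.55 to -0.38 for Trappc5 and from -0.53 to -0.37 for Trappc6a. Of the 7 epithelial markers, 5 had a lower and 2 a higher fitted level in RNF138-/- organoids. Stromal marker sums were 40406.0 to 49652.1 CPM in RNF138-/- and 9090.2 to 23221.5 CPM in RNF138 fl/fl organoids, and epithelial marker sums 5465.9 to 8017.0 CPM and 9516.5 to 10442.4 CPM. Leukocyte sums were 79.0 to 123.2 CPM and 4.62 to 8.63 CPM, and smooth muscle sums 1583.1 to 1778.8 CPM and 265.1 to 1358.2 CPM, in the same order. Their part in the lower core transcripts was not tested.

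**Figure D4:**
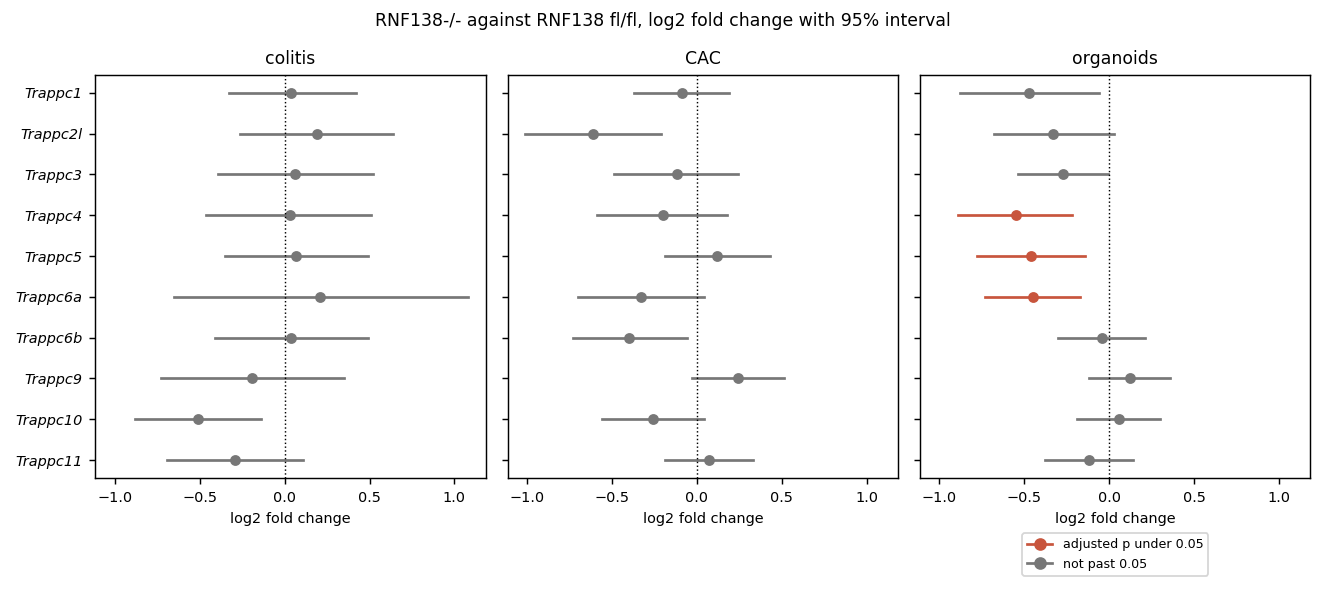
Points are log2 fold changes of RNF138-/- against RNF138 fl/fl libraries for each subunit in colitis, CAC tissue and organoids, with 95% intervals (lines) from edgeR. Red marks an adjusted p under 0.05: Trappc4, Trappc5 and Trappc6a in organoids, at -0.55, -0.46 and -0.45, and no subunit in either tissue model.

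An exact permutation test of each member within each model (two-sided, on the mean of log2(CPM + 1)) cannot give a p below 0.1 with 3 libraries against 3, and 12 of the 30 tests reached that value. These are the 2, 5 and 5 members without overlap between genotypes, beside 17.2%, 45.2% and 53.3% of all genes in colitis, CAC tissue and organoids.

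The next comparisons were between models. CAC and colitis tissue differ in azoxymethane, and organoids and CAC tissue in culture and cell types. In RNF138 fl/fl mice they differ in sex as well, with 187.9 to 228.4 CPM of Y-linked genes in CAC tissue and none in organoids, so that the part of sex in those values, that of Trappc9 included, cannot be told apart. Both sets of comparisons use the same CAC libraries. In RNF138 fl/fl mice, 0 of 10 members passed between CAC and colitis tissue in edgeR, where 19.8% of 19390 genes did and 13.6% did with a fold change of at least 2, and DESeq2 also called 0. At an unadjusted p of 0.05, Trappc3 (log2 difference -0.35) and Trappc6a (-0.62) passed, beside 33.8% of all genes. Trappc6a also passed the adjusted threshold without colitis replicate 3 (adjusted p = 0.0443), and Trappc3 without CAC replicate 1 (0.0485). In RNF138-/- mice, 4 of 10 members passed, beside 54.7% of all genes, and 2 of them, Trappc2l and Trappc6a, had a fold change of at least 2, beside 37.1%. Without colitis RNF138-/- replicate 1 neither reached that fold (log2 differences -0.94 and -0.71), nor did they with libraries scaled by totals alone (-0.71 and -0.78), and without CAC RNF138-/- replicate 2 Trappc6a did and Trappc2l did not. Of the 4, 3 were lower and 1 higher. With libraries scaled by totals alone, which moved the median of all genes from 0.04 to 0.35, Trappc2l and Trappc6a were lower and 4 members were higher: Trappc4 (log2 difference 0.49), Trappc9 (0.59), Trappc10 (0.46) and Trappc11 (0.67). Of all genes called on that scale, 65.7% were higher, in place of 51.1% under TMM. Trappc2l was 2.04-fold lower in CAC than in colitis tissue, at 18.7 ± 1.12 against 38.2 ± 6.09 CPM (SD, n = 3, log2 difference -1.03, edgeR adjusted p = 0.000169). Trappc6a (log2 difference -1.11) and Trappc3 (-0.49) were lower as well, and Trappc11 (0.37) was higher (edgeR adjusted p = 0.00350, 0.0160 and 0.0190). The Trappc3 and Trappc11 calls were lost without a filter on low counts (adjusted p = 0.0564 and 0.132), that of Trappc3 also with libraries scaled by totals alone (log2 difference -0.17, adjusted p = 0.423), and both when single libraries were left out: Trappc3 without CAC RNF138-/- replicate 1 or 2, and Trappc11 without colitis RNF138-/- replicate 1 or 2. Smooth muscle marker sums of 113.2 to 241.9 CPM in RNF138-/- CAC tissue against 4989.7 to 14526.5 CPM in RNF138-/- colitis stand beside these values. Leukocyte (630.2 to 926.9 against 2061.7 to 3027.8 CPM), neuronal (6.05 to 9.81 against 45.1 to 95.8 CPM), fat (15.4 to 16.2 against 32.2 to 158.5 CPM) and epithelial (6606.8 to 8038.8 against 8822.8 to 12190.6 CPM) marker sums were also lower in CAC tissue without overlap. The leukocyte sum fell mostly through Jchain (119.3 to 203.5 against 1460.4 to 2570.7 CPM), and 5 of the 7 leukocyte markers had a lower and 2 a higher fitted level. Of the 7 epithelial markers, 4 had a lower and 3 a higher fitted level. Epcam (1422.6 to 1651.6 against 1189.0 to 1368.1 CPM) and Cdh1 (850.6 to 1050.5 against 626.5 to 707.6 CPM) were among the higher. The part of these cells was not tested.

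In RNF138 fl/fl mice, 3 members were higher and 1 lower in organoids than in CAC tissue, beside 27% of all genes higher and 33.7% lower (60.7% in all). None had a fold change of at least 2, where 44.3% of all genes passed both criteria. Trappc9 rose 1.77-fold, from 32.3 ± 1.28 to 57.3 ± 3.55 CPM (SD, n = 3, log2 difference 0.82, 95% interval 0.47 to 1.18, edgeR adjusted p = 0.000517), with no overlap between libraries. Trappc6a rose by 0.91 and Trappc3 by 0.66 on the log2 scale (edgeR adjusted p = 0.0104 and 0.00212). Trappc10, the partner of Trappc9, was lower (log2 difference -0.32, edgeR adjusted p = 0.0325), a call lost without organoid replicate 2 or 3, without CAC replicate 2 or 3 and without a filter on low counts (adjusted p = 0.155). Leukocyte (4.62 to 8.63 against 1775.1 to 2750.9 CPM) and smooth muscle (265.1 to 1358.2 against 2505.1 to 8379.2 CPM) marker sums were lower in organoids. The stromal sum was higher (9090.2 to 23221.5 against 1059.2 to 1702.9 CPM). The part of these cells was not tested.

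In RNF138-/- mice, 4 members were higher and 3 lower in organoids than in CAC tissue, beside 25.7% and 34.2% of all genes (59.9% in all). Again none had a fold change of at least 2, where 44.4% of all genes passed both criteria. Trappc9 rose from 39.5 ± 1.36 to 63.9 ± 3.99 CPM (SD, n = 3, log2 difference 0.69, 95% interval 0.34 to 1.04, edgeR adjusted p = 0.00193). Trappc6a (0.78), Trappc6b (0.52) and Trappc3 (0.49) were higher as well, and Trappc1 (-0.71), Trappc5 (-0.41) and Trappc11 (-0.30) lower on the log2 scale. The Trappc1 call held in all alternatives and with each library left out, that of Trappc11 was lost whichever of the 6 libraries was left out, and without CAC RNF138-/- replicate 2 only 3 members passed. Without CAC RNF138-/- replicate 1, organoid RNF138-/- replicate 1 or organoid RNF138-/- replicate 3, 4 members passed, the Trappc5 call being lost each time. The Trappc6a call was lost in 4 of the 6 fits that left out a library (CAC RNF138-/- replicates 2 and 3 and organoid RNF138-/- replicates 1 and 3), and that of Trappc3 in 2 (CAC RNF138-/- replicates 1 and 2). The Trappc6b and Trappc9 calls held with each library left out. Leukocyte marker sums were lower in organoids (79.0 to 123.2 against 630.2 to 926.9 CPM). Smooth muscle (1583.1 to 1778.8 against 113.2 to 241.9 CPM) and stromal (40406.0 to 49652.1 against 922.5 to 1730.8 CPM) sums were higher. The part of these cells was not tested.

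The median of all genes between organoids and CAC tissue was -0.14 in RNF138 fl/fl and -0.22 in RNF138-/- comparisons, and with libraries scaled by totals alone it moved to -0.3 and -0.84. On that scale the RNF138-/- difference of Trappc9 was 0.07, which is 0.91 above the median of all genes, and it did not pass (adjusted p = 0.723), whereas the RNF138 fl/fl difference was 0.65 (adjusted p = 0.00324). Scaled so, no member was higher and 5 were lower in RNF138-/- organoids than in CAC tissue. Of all genes called there, 21.3% were higher, in place of 42.9% under TMM. With each library left out in turn under TMM, the Trappc9 difference ran from 0.77 to 0.85 in RNF138 fl/fl and from 0.64 to 0.73 in RNF138-/- mice and passed each time.

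**Figure D5:**
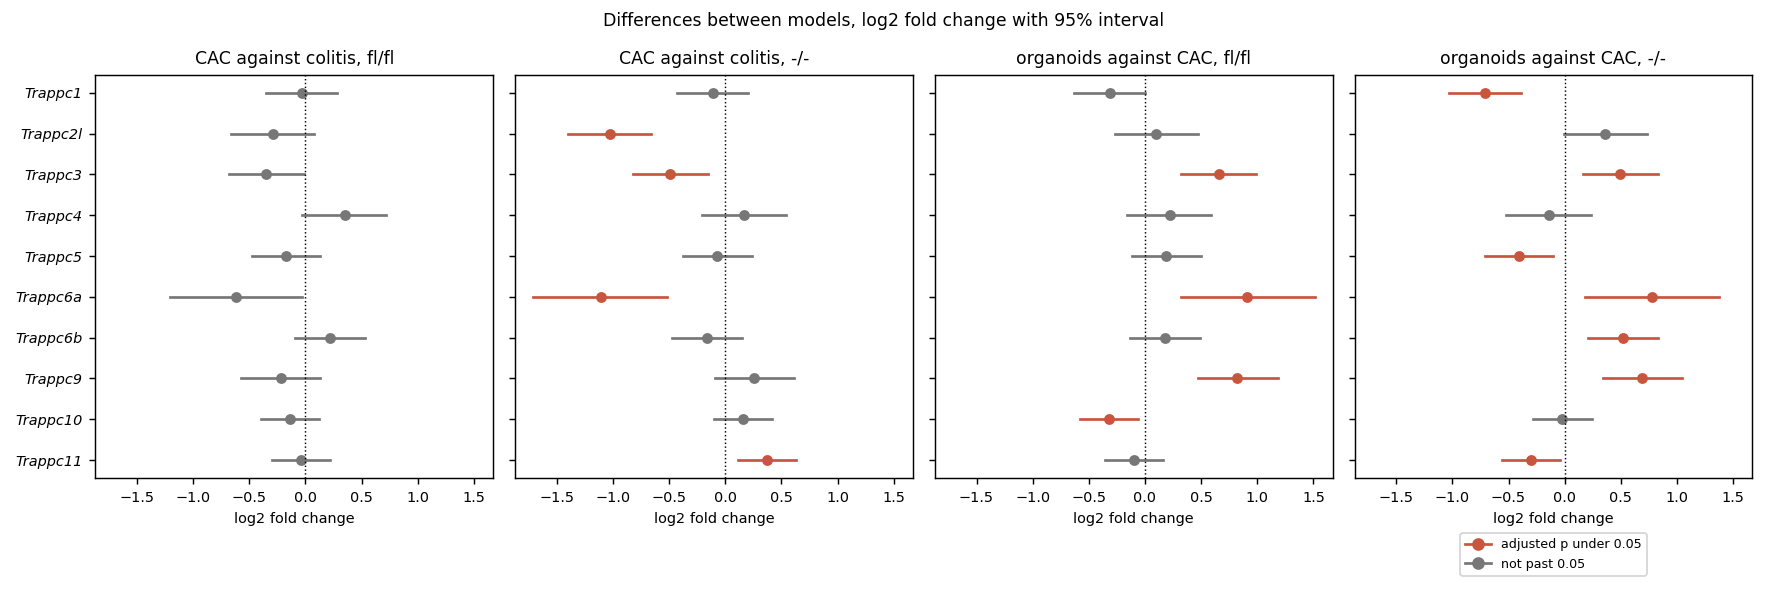
Log2 fold changes with 95% intervals (edgeR, 18 libraries in 1 fit) for CAC against colitis and organoids against CAC in each genotype, red for an adjusted p under 0.05. Trappc9 is 0.82 and 0.69 higher in organoids, and the neighbouring comparisons share their CAC libraries.

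The difference between the genotype effects of CAC and colitis passed for 0 of 10 members in edgeR, beside 14.1% of all genes, with 2 members at an unadjusted p of 0.05, beside 30.1%. Those were Trappc2l, at -0.74 (adjusted p = 0.0533), and Trappc11, at 0.41 (adjusted p = 0.124). Trappc2l passed with the replicate block (adjusted p = 0.0416), with RLE scaling (0.0386) and in DESeq2 (0.0152), but not with libraries scaled by totals alone (0.196). It also passed in edgeR without colitis RNF138-/- replicate 3 (adjusted p = 0.0208) or CAC RNF138 fl/fl replicate 2 (0.0193). For Trappc9 the difference of the effects was 0.48 (95% interval -0.02 to 0.97, edgeR adjusted p = 0.180), and with libraries scaled by totals alone it was 0.74 and passed (adjusted p = 0.0469), the median of all genes then being 0.24. Between organoids and CAC, 1 of 10 members passed, Trappc5, beside 23.3% of all genes.

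The other subunits of the complex were read from the same fits. Of the 5 that could be tested, none passed in colitis or CAC tissue in edgeR, 0 also at an unadjusted p of 0.05, and 1 fell in organoids, Trappc2, the X-linked gene of sedlin (log2 difference -0.65, edgeR adjusted p = 0.0365), in libraries whose sex differs with genotype. Trappc8, a TRAPPIII subunit whose gene lies near Rnf138 on chromosome 18, differed by -0.32, -0.13 and 0.03 in colitis, CAC and organoids, none past the threshold. BC037034 was lower in RNF138 fl/fl organoids than in CAC tissue (log2 difference -1.59, edgeR adjusted p = 0.000127), and Trappc3l had at most 2 counts in a library. In the pathway that TRAPP serves, 8 of 13 genes of the COPII vesicle coat and its assembly rose in RNF138-/- organoids and none fell, beside 17.9% and 17.7% of all genes, among them the cargo-binding coat genes Sec24d (log2 difference 1.35) and Sec24a (0.92) and Sec23a (1.03), whose product activates the SAR1 GTPase reaction. All 6 stromal markers rose in the same comparison (median log2 difference 1.67), and their part in the COPII values was not tested, while sex and genotype cannot be told apart there. None passed in colitis or CAC tissue in edgeR, where 2 and 4 were under an unadjusted p of 0.05, beside 10.4% and 33.8% of all genes, and in CAC tissue Sec24d (-0.81) and Sec23a (-0.93) had the opposite sign (adjusted p = 0.0541 and 0.0725). The Golgi tether genes Uso1 (0.43) and Gorasp1 (0.46) rose in organoids too, 2 of 4 in that list, beside the same 17.9% of all genes. Rab1a (0.15) and Rab1b (0.16), the Rab substrates of the core, did not pass. Rab11a, a recycling endosome Rab, fell by 0.71, 1 of the 6 Rab genes, beside the 17.7% of all genes that fell. Of the 4 kinase genes bound by or working with NIBP, 1 rose in organoids, beside 17.9% of all genes. It was Map3k14, which encodes NIK (log2 difference 1.04, edgeR adjusted p = 0.0159). Ikbkb, which encodes IKK-beta, differed by 0.44 in CAC tissue (edgeR adjusted p = 0.0725) and -0.24 in organoids (edgeR adjusted p = 0.126). The limits from stroma and sex given for the COPII genes hold for these organoid values too.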

How the data were processed

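RNA-seq libraries were made from total RNA with a TruSeq RNA kit, which does not mark strand. Per the labels, the authors worked on mm10 with STAR 2.6.1d, HTSeq 0.11.2 and DESeq2, and the deposited values are raw read counts per gene in 1 table. Reads shared between overlapping genes or close copies can be lost or split in such counting. Library totals ran from 11514716 to 24390082 (median 17332367), and gene positions and exon lengths were taken from GENCODE M21, which matched 36700 of 36757 identifiers.

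Genotypes were compared within each model with edgeR 4.0.16 (quasi-likelihood test, TMM, filterByExpr, Benjamini-Hochberg over all genes tested) in R 4.3.3, and models and differences of effects in 1 fit of 18 libraries. CPM and FPKM were computed from that fit's scaling. Exact permutation tests used log2(CPM + 1). On simulated data with 200 changed genes, the genotype fits recovered 186 (colitis), 169 (CAC) and 198 (organoids), with 17, 22 and 18 false calls. Recovery of differences as small as those of the members was not tested. Alternatives were other scaling (RLE, or library size only), no filter, DESeq2 1.42.0, a replicate block, a fit of all libraries, a covariate of Y-linked expression and leaving out each library. Same-numbered colitis libraries deviated together (correlations 0.26, 0.11 and 0.53), which meets the criterion for pairing there, and the block left 0 members called in colitis. Replicates 1 and 2 of different genotypes also deviated together (0.28 and 0.24), and replicate 3 went against them (-0.42 to -0.28). The pattern is thus not particular to same-numbered libraries. The genes named were all 10 members, and from the other lists up to 4 a list that passed a genotype test, by smallest p; any further gene named from them was picked with its values in view. Members and lists were chosen with earlier results of these data known. Figures used matplotlib 3.10.9.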

Additional observations from a re-analysis of the deposited data

Results flagged for a closer look

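One member's genotype effect differed between models by a test of the difference itself. Trappc5 was lower in RNF138-/- than in RNF138 fl/fl organoids, at 22.2 ± 1.11 against 29.8 ± 3.80 CPM, and stood at 29.4 ± 0.631 against 26.1 ± 2.76 CPM in CAC tissue (SD, n = 3). The difference of the log2 effects, organoids minus CAC, was -0.59 (95% interval -1.03 to -0.16, edgeR adjusted p = 0.0475). It lost the threshold with RLE scaling (adjusted p = 0.0607), without a filter on low counts (0.264) and in 10 of the 12 fits that left out a library, and DESeq2 gave 0.0314. The organoid genotypes also differ in sex, which cannot be told apart from genotype there.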

How the results depend on the processing

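Under library-size-only scaling the median of all genes moved to 0.27 in CAC, -0.24 in organoids, 0.35 for CAC against colitis in RNF138-/- mice, and 0.24 and -0.49 for the differences of effects (CAC minus colitis, organoids minus CAC), and the share of higher calls went from 50.3% to 29.9% in organoids, from 51.1% to 65.7% for CAC against colitis and from 42.9% to 21.3% for organoids against CAC in RNF138-/- mice, and from 29.9% to 44.1% and from 56.1% to 27.2% for the differences of effects. Signs reversed on that scale for Trappc4 in colitis (-0.013); Trappc1 (0.18), Trappc3 (0.14), Trappc4 (0.0686) and Trappc10 (0.0051) in CAC; Trappc9 (-0.0812) and Trappc10 (-0.15) in organoids; Trappc1 (0.0319) and Trappc11 (0.022) in CAC against colitis in RNF138 fl/fl, and Trappc1 (0.20), Trappc5 (0.25) and Trappc6b (0.14) in RNF138-/- mice; Trappc2l (-0.0581) in organoids against CAC in RNF138 fl/fl, and Trappc2l (-0.26), Trappc3 (-0.13) and Trappc6b (-0.11) in RNF138-/- mice; Trappc1 (0.17), Trappc3 (0.10) and Trappc4 (0.0831) in CAC minus colitis; and Trappc2l (-0.20), Trappc6b (-0.14) and Trappc10 (-0.15) in organoids minus CAC. A Y-linked covariate, nearly collinear with genotype in organoids, reversed Trappc3 (1.70), Trappc4 (1.64), Trappc6a (3.30) and Trappc11 (1.41) there and Trappc4 in colitis (-0.009).

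Counts of members called moved as follows, and the cause was not tested. CAC went from 0 to 1 with DESeq2 and with the fit of all libraries. Organoids went from 3 to 6 with library size only and to 0 with the replicate block, the fit of all libraries and the Y-linked covariate. Without a filter, CAC against colitis in RNF138-/- mice went from 4 to 2 and organoids against CAC from 7 to 4. CAC against colitis in RNF138-/- mice went from 3 lower and 1 higher to 2 lower and 4 higher with library size only. CAC minus colitis went from 0 to 1 with RLE, DESeq2 and the replicate block (Trappc2l, lower) and with library size only (Trappc9, higher), and organoids minus CAC from 1 to 0 with RLE and without a filter and to 4 with library size only. With 1 library left out, counts ran from 0 to 4 in organoids, 0 to 1 for CAC against colitis in RNF138 fl/fl, 3 to 6 for organoids against CAC in RNF138-/- mice, and 0 to 1 for both differences of effects.

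Signs that turned when a library was left out were those of small differences: in colitis Trappc1 (-0.0104 to 0.11), Trappc3 (-0.10 to 0.16), Trappc4 (-0.15 to 0.18), Trappc5 (-0.0126 to 0.17), Trappc6a (-0.19 to 0.52), Trappc6b (-0.0694 to 0.19) and Trappc9 (-0.36 to 0.0036), in CAC Trappc3 (-0.18 to 0.0137), in organoids Trappc6b (-0.12 to 0.0161) and Trappc10 (-0.0053 to 0.14), in CAC against colitis in RNF138-/- mice Trappc4 (-0.0572 to 0.35), Trappc5 (-0.24 to 0.0146) and Trappc9 (-0.003 to 0.44), in organoids against CAC Trappc2l in RNF138 fl/fl (-0.0336 to 0.20) and Trappc10 in RNF138-/- mice (-0.0879 to 0.0181), and in CAC minus colitis Trappc5 (-0.0378 to 0.19). Same-numbered libraries did not meet the pairing criterion in CAC (0.03, 0.22 and 0.08) or organoids (-0.21, -0.09 and 0.07), where the replicate block gave adjusted p of 0.0581 for Trappc4, 0.0678 for Trappc5 and 0.0555 for Trappc6a. With Spearman's rho 0 of the 5 genes closest to Trappc9 were shared, and with the other transcript length 4 of 10 FPKM ranks were kept. Counts limit precision, the lowest member value resting on 248 reads.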

Other observations

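Peg13, a non-coding imprinted gene, lies inside Trappc9 at chr15:72805600-72810324 and shares no exon bases with it. It had 40.8, 36.5 and 39.7 CPM in RNF138 fl/fl and 51.5, 49.2 and 48.6 CPM in RNF138-/- colitis, 28.2, 36.9 and 31.4 against 20.8, 26.6 and 20.2 CPM in CAC tissue, and 41.4, 31.9 and 32.4 against 45.5, 52.4 and 46.9 CPM in organoids. The genotypes did not overlap in any model, and the log2 differences were 0.35, -0.57 and 0.42 (edgeR adjusted p = 0.485, 0.0864 and 0.0419). Trappc9 in the same comparisons differed by -0.19, 0.24 and 0.12.

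The genes whose log2 levels followed Trappc9 most closely over the 18 libraries were Prkcsh (Pearson's r = 0.97), Zswim4 (0.97), Rela (0.96), Aars (0.96) and Vps18 (0.96). The libraries fall into 3 models that share tissue or culture, so these values describe that layout and carry no p. By Spearman's rho the closest 5 were other genes, led by Maged1 (0.97), with 0 shared.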
